A study of Glycine soja with 4 samples.

Results

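The predicted candidates of 23 to 25 nt were the sequences whose names begin with PC, the mark of a predicted candidate miRNA in the study, and whose length was 23, 24 or 25 nt. Each distinct sequence was counted once, which gave 39 sequences under 41 names, of 74 predicted candidates and 217 listed sequences in all. PC-65a-3p and PC-67a-3p each had a second name for the same sequence, and PC-1-5p carried a footnote letter in its name. The candidates came from roots of wild soybean (*Glycine soja*, line BW69), the wild relative of cultivated soybean, kept in nutrient solution at pH 4.5 with 50 µmol/L AlCl3 (Al-treated) or with 0 µmol/L AlCl3 (Al-free). Aluminum in acid solution inhibits root growth. Root segments of 10 cm from the apex, taken at 7 times between 1 and 96 h, were pooled, and each condition gave a single small RNA library and a single degradome library without replicates. Every test below therefore compares the reads of 2 libraries, not the conditions, and every interval covers counting error only. Reads without molecular identifiers are not independent molecules, so the tests and intervals may understate even that error.

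Plants make small RNAs of this length mainly by the pathway of RNA-directed DNA methylation. RNA polymerase IV and RDR2 make a double-stranded RNA at transposons and repeats, DCL3 cuts it into siRNAs of 24 nt, and AGO4, which prefers a 5′ A, carries them back to the locus. A miRNA is instead cut from the stem of a hairpin precursor, mostly by DCL1 and mostly at 21 nt, often begins with U (T in these lists) and is loaded into AGO1. Its hairpin gives a pair of strands, named 5p and 3p for the arm they come from, that pair with each other. Some plant hairpins are also cut by DCL3 into miRNAs of 24 nt, so length alone does not separate the classes.

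Some of the sequences shared long runs with each other. In PC-4-5p, PC-4-3p and PC-47-3p, shown because they are shifted or lengthened copies of the same sequence, the capitals mark the 21 bases common to the set.
PC-4-5p: gtCGTTGTAGTATAGTGGTAAGT
PC-4-3p: gtCGTTGTAGTATAGTGGTAAGTa
PC-47-3p: CGTTGTAGTATAGTGGTAAGTatt

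PC-31-5p and PC-37-5p overlapped by 18 bases, in capitals, with PC-37-5p starting 6 bases further along.
PC-31-5p: tgaaggTACAAACGATGTAGAATG
PC-37-5p: TACAAACGATGTAGAATGtggaca

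PC-12-5p, PC-30-3p and PC-67a-3p were 3 of the 5 candidates that passed the test with more reads in the Al-treated library. They held the same 8-base run, in capitals, which 4 listed sequences under known miRNA names also held, with PN-mir4369-p5 carrying it on the opposite strand.
PC-12-5p: aaatctacatgCGGATCAAgttga
PC-30-3p: aaggcttaCGGATCAAgttggtat
PC-67a-3p: aattaacttaCGGATCAActtgat
PN-miR4343a: aaaaaacttaCGGATCAAattgat
PN-miR4347: aagcttcttaCGGATCAAgttgat
PN-mir4347-p3: agaagcttgCGGATCAAtttgatc
PN-mir4369-p5: gatcaacTTGATCCGgaagagact

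PC-29-3p is shown with PN-miR2111a, a listed miR2111 sequence, because 12 consecutive bases of the pair, in capitals, are complementary.
PC-29-3p: ctagtccttgGGATGCAGATTAcg
PN-miR2111a: TAATCTGCATCCtgaggttt

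The most abundant candidate, PC-15-5p, both arms of PC-1, and 3 candidates whose reads differed between the libraries are shown with the first base in capitals.
PC-15-5p: Tccgttgtagtctagttggttagga
PC-1-5p: Tggcctgtgatgcatcaatttgtc
PC-1-3p: Gtctctgatgaatgctcaaattct
PC-28-3p: Catttgggcacctattttgactc
PC-33-3p: Ggagaacaaagaagcagctaaattc
PC-65a-3p: Ttcgaatggatactgatacatctg

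The length of 24 nt dominated. It was the length of 33 of the 39 sequences, while 3 had 23 nt (PC-4-5p, PC-28-3p and PC-42-5p) and 3 had 25 nt (PC-15-5p, PC-24-5p and PC-33-3p). No predicted candidate was longer than 25 nt. The 35 shorter candidates peaked at 21 nt, with 18 sequences, followed by 22 nt with 11. The distribution of candidate sequences thus had a peak at 24 nt and another at 21 nt, with few at 23 nt between them. In reads the order was different, because a few sequences held most of them. The candidates of 24 nt had 452 reads in the Al-treated library and 496 in the Al-free library. Those of 25 nt had 460 and 388 reads, in the same order of libraries, and those of 23 nt had 15 and 61.

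An A was the most frequent first base, the base that AGO4 prefers. It stood first in 16 of the 39 sequences (41.03%), T in 9 (23.1%), and G and C in 7 each (17.9%). Among the 33 candidates of 24 nt, 15 began with A (45.5%). Over the 24 positions of these sequences, A ranged from 15.2% (position 21) to 48.5% (positions 2 and 22). The first base was therefore not the position richest in A. All but PC-42-5p (23 nt) of the 16 sequences that began with A had 24 nt. The candidates of 22 nt or shorter had the opposite order: 2 of 35 began with A (5.71%) and 14 with T. The known miRNAs and strands of 23 to 25 nt were closest, with 26 of 48 beginning with A (54.2%) and 13 with T (27.1%). Of the known sequences of 22 nt or shorter, 52 of 95 began with T (54.7%), and 43 of 60 (71.7%) when strands named p3 or p5 were left out. These shares describe the lists and were not tested.

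**Figure D1:**
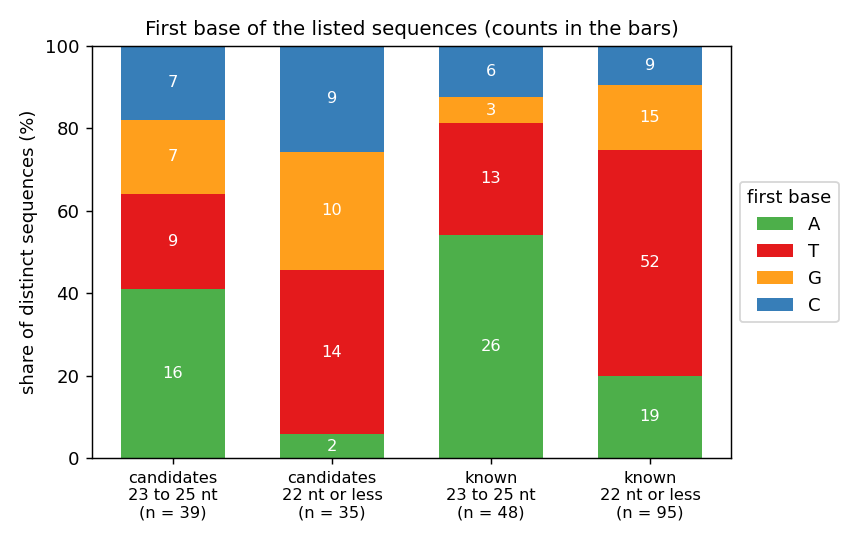
Share of distinct sequences by first base (percent, bars filled to 100, numbers of sequences written in the bars) for predicted candidates of 23 to 25 nt, candidates of 22 nt or less, and known miRNAs and strands of the same length ranges. A begins 16 of the 39 long candidates and 2 of the 35 shorter ones, while T begins 52 of the 95 short known sequences.

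Over the reads of all 39 candidates, A did not lead as first base. Sequences beginning with A held 18.9% of the reads of the 39 candidates in the Al-treated library and 15.03% in the Al-free library. Without PC-15-5p, which begins with T, these shares were 34.7% and 24.8%, again with the Al-treated library given before the Al-free one. Of the 16 sequences with a first A, 15 stayed under 20 reads in both libraries, and the exception was PC-41-3p. In the known miRNAs and strands of 23 to 25 nt, A began 57.3% of the Al-treated and 77.8% of the Al-free reads. The last base of the candidates of 24 nt was T in 54.5%, compared with 31.1% of the 45 known sequences of that length. The GC content of the 39 candidates had a median of 41.7% and spanned 25.0% (PC-41-3p) to 64.0% (PC-24-5p), beside medians of 47.6% for the shorter candidates and 42.6% for the known sequences of 23 to 25 nt.

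Most of the candidates were rare. The 39 sequences together held 927 reads in the Al-treated library and 945 in the Al-free library, or 127 and 134 RPM (reads scaled to the clean reads of each library). That was 2.08% of the 44493 listed Al-treated reads and 3.11% of the 30411 listed Al-free reads. The median was 11 reads per sequence in the Al-treated library and 10 in the Al-free library, and 28 of the 39 stayed under 20 reads in both. In all, 37 were read in both libraries, and PC-12-5p and PC-30-3p had 0 reads in the Al-free library. At this depth 1 read equalled 0.137 RPM in the Al-treated and 0.142 RPM in the Al-free library.

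The lists appear to have a minimum that shaped these values, inferred here from the counts alone. Every predicted candidate, long or short, had at least 10 reads in the library where it had more, and 23 of the 39 long candidates had 10 to 12 reads there, compared with 3 of the 35 shorter ones. The known miRNAs and strands of 23 to 25 nt had no such limit, since 42 of 48 stayed under 10 reads in both libraries, with medians of 3 Al-treated and 1.5 Al-free reads. The medians of the candidates therefore cannot be set against those of the known sequences. The shorter candidates, whose larger counts also began at 10, had medians of 20 Al-treated and 14 Al-free reads.

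**Figure D2:**
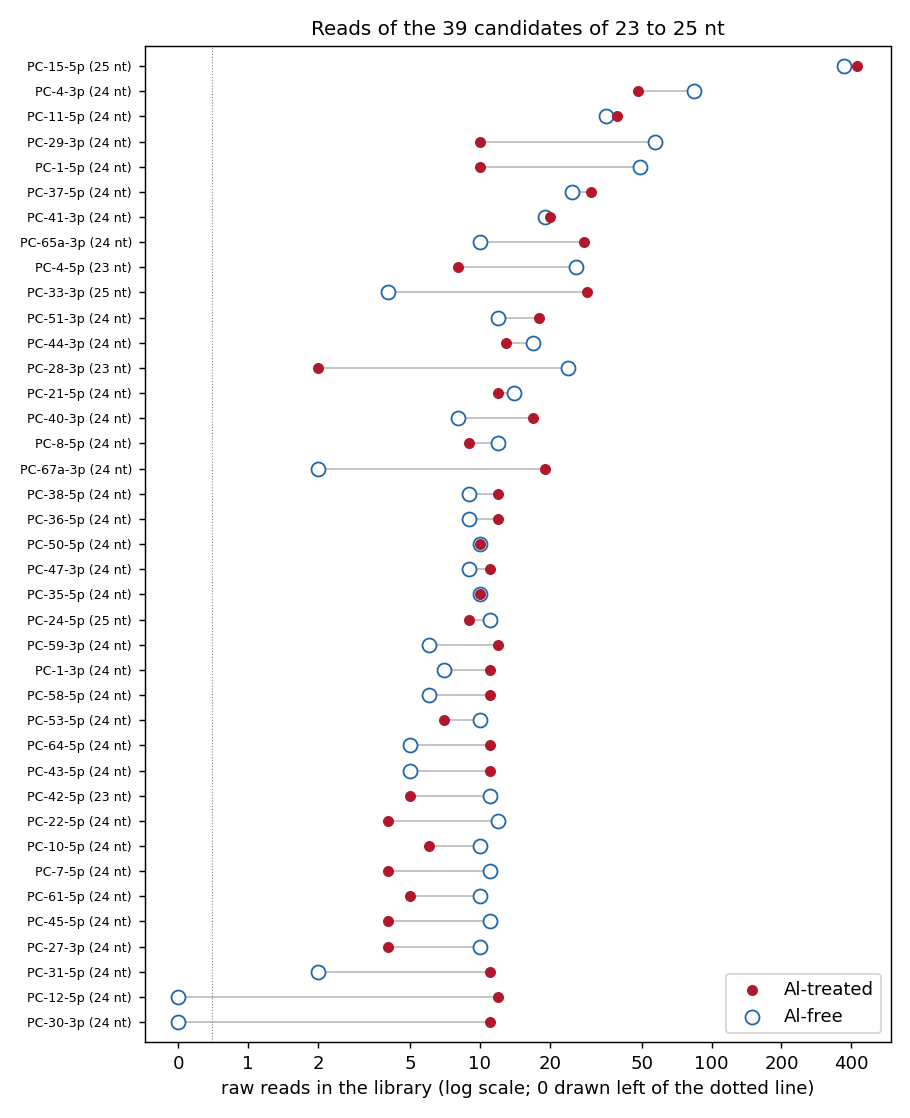
Raw reads of each of the 39 candidates in the Al-treated library (filled points) and the Al-free library (open points), on a log axis with 0 drawn left of the dotted line, ordered by reads over both libraries. PC-15-5p stands alone with 422 Al-treated and 373 Al-free reads, and most of the others crowd near 10 reads.

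PC-15-5p, of 25 nt, decided the total. It had 422 reads in the Al-treated library and 373 in the Al-free library, or 45.5% (95% Clopper-Pearson interval 42.3% to 48.8%) and 39.5% (36.3% to 42.7%) of all reads of the 39 candidates. Its sequence matched PC-4-5p, PC-4-3p and PC-47-3p over a run of 16 bases with 2 mismatches. The 4 sequences resemble the 5′ ends of plant tRNAs, which was not tested because tRNA sequences were not used here, so their reads may be neither of miRNAs nor of siRNAs. These 4 related sequences together held 489 Al-treated reads (52.8%) and 492 Al-free reads (52.1%). No other candidate passed 100 reads in either library. The 11 candidates with at least 20 reads in a library were PC-15-5p, PC-4-3p, PC-4-5p, PC-11-5p, PC-29-3p, PC-1-5p, PC-37-5p, PC-41-3p, PC-65a-3p, PC-33-3p and PC-28-3p, and held 69.7% of the Al-treated and 74.7% of the Al-free reads.

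Partners from the opposite arm were few. The names put 24 sequences on a 5p arm and 15 on a 3p arm, with 37 candidate numbers in all. Both arms were listed for only 2 numbers, PC-1 and PC-4, which is 4 of 39 sequences, compared with 8 of 35 sequences of the shorter candidates. For the other 35 sequences the lists gave a single arm. Since a partner below such a minimum would not be listed, a missing arm cannot be read as a count of 0.

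The pair of PC-1 was the clearer of these, since its arms are different sequences. PC-1-5p had 10 reads in the Al-treated library and 49 in the Al-free library, and PC-1-3p had 11 and 7. PC-1-5p thus held 47.6% of the reads of the pair in the Al-treated library (95% Clopper-Pearson interval 25.7% to 70.2%) and 87.5% in the Al-free library (75.9% to 94.8%). The arm shares differed between the libraries (two-sided Fisher's exact test, p = 0.000564, adjusted p = 0.00113 over the 2 pairs). PC-1-5p was lower in the Al-treated library, while PC-1-3p had a log2 ratio of 0.60 (-0.90 to 2.21) that did not pass the test described below. As a duplex, the 2 arms formed 10 base pairs with a predicted energy of -6.7 kcal/mol. The shorter pairs PC-2, PC-3 and PC-6a formed 17 or 18 base pairs at -24.0, -25.3 and -24.9 kcal/mol, and PC-5 formed 6 at -6.0 kcal/mol. The 2 sequences of PC-5 shared 13 consecutive bases of the same strand, compared with 5 for PC-1, so PC-5 is not a like reference.

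The arms of PC-4 were not arms of a duplex by sequence. PC-4-5p (23 nt) and PC-4-3p (24 nt) were the same run of 23 bases, and PC-4-3p had an additional base at its 3′ end. PC-4-5p had 8 reads in the Al-treated library and 26 in the Al-free library, while PC-4-3p had 48 and 84. The shorter form made up 14.3% of the Al-treated and 23.6% of the Al-free reads of the pair, and these shares did not pass the test (two-sided Fisher's exact test, p = 0.222, adjusted p = 0.222 over the 2 pairs). PC-47-3p, which shared 22 bases with PC-4-3p and started 2 bases further along, had 11 Al-treated and 9 Al-free reads. A read of the common 21 bases can be assigned to any of the 3 names only by its ends, so the counts of these sequences are not independent of how ends were trimmed and assigned.

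A further partner lay outside the candidate names. PC-29-3p was the only one of the 39 sequences that the study's tables also list under a known name, miR2111, a family that acts in the phosphate response and in nodulation of legumes, whereas 18 of the 35 shorter candidates had such a name. It was complementary to PN-miR2111a (20 nt), with 17 predicted base pairs at -27.3 kcal/mol. This pair was noticed after its values had been seen and was not tested. PC-29-3p had 10 Al-treated and 57 Al-free reads, while PN-miR2111a had 31 Al-treated and 17 Al-free reads. PN-miR2111a therefore made up 75.6% of the reads of both in the Al-treated library (95% Clopper-Pearson interval 59.7% to 87.6%) and 22.97% in the Al-free library (13.99% to 34.2%). PC-10-5p, with 6 Al-treated and 10 Al-free reads, and PC-27-3p, with 4 and 10, were also complementary, over a run of 18 bases with 2 mismatches, and paired at -24.3 kcal/mol. They carry different candidate numbers, and this pair too was chosen after its values had been seen.

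Overlapping or shifted copies were present among the long candidates. Of the 39 sequences, 6 shared at least 16 consecutive bases of the same strand with another listed sequence, compared with 0 of the 35 shorter candidates and 8 of the 48 known sequences of 23 to 25 nt. Such a run was also found in 28 of the 95 known sequences of 22 nt or shorter, and in 42 of all 217 listed sequences. In PC-4-5p, PC-4-3p, PC-47-3p, PC-31-5p and PC-37-5p the shared run reached an end of the sequence, as in a shifted copy, while PC-30-3p shared an inner run with PN-miR4347. With up to 2 mismatches on either strand, 12 of the 39, 7 of the 35 and 31 of the 48 sequences had such a run. So had 58 of the 95 short known sequences and 108 of all 217. PC-31-5p had 11 Al-treated and 2 Al-free reads, while PC-37-5p, which overlaps it with an offset of 6 bases, had 30 and 25. The log2 ratio was 2.41 (0.21 to 5.62) for PC-31-5p and 0.21 (-0.60 to 1.04) for PC-37-5p, with intervals that overlap. The difference of these ratios was not tested, nor were the counts of overlapping sequences.

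Between the libraries, the sum of the candidates differed little relative to clean reads, and was lower in the Al-treated library under each of the other scalings. Each ratio is the log2 of the reads per clean read, Al-treated over Al-free, and equal reads per clean read would put 50.9% of the reads of a sequence in the Al-treated library. For the 39 sequences together, 927 Al-treated and 945 Al-free reads gave a log2 ratio of -0.08 with an interval of -0.21 to 0.05. With the factors of the study it was -0.19, with the median of ratios -0.28, and relative to the sum of all listed reads -0.58. It also rested on PC-15-5p: without it, 505 Al-treated and 572 Al-free reads gave -0.23 (-0.41 to -0.06). Without its relatives PC-4-3p, PC-4-5p and PC-47-3p as well, 438 Al-treated and 453 Al-free reads gave -0.10, with an interval of -0.29 to 0.09 that included 0. The candidates of 24 nt had a log2 ratio of -0.18 (-0.37 to 0.0021), those of 23 nt -2.07 (-3.00 to -1.24) and those of 25 nt 0.19 (-0.0032 to 0.39). The value at 23 nt came from PC-4-5p, PC-28-3p and PC-42-5p, and the value at 25 nt mostly from PC-15-5p. The shorter candidates, with 1583 Al-treated and 1456 Al-free reads, had a log2 ratio of 0.07 (-0.03 to 0.17). The known miRNAs and strands of 23 to 25 nt, with 316 Al-treated and 189 Al-free reads, had 0.69 (0.43 to 0.96).

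Single candidates passed the test in both directions. An exact two-sided binomial test of the share of reads in the Al-treated library was adjusted by the Benjamini-Hochberg method over the 144 listed sequences with at least 10 reads over both libraries, which included all 39 candidates. At an adjusted p under 0.05, 5 candidates were higher in the Al-treated library (12.8%, beside 22.9% of all 144) and 5 were lower (12.8%, beside 14.6%). By fold, 9 were past a log2 ratio of 1 (23.1%, beside 26.4%) and 10 were past -1 (25.6%, beside 15.3%). All 144 include the 39 candidates, and none of these shares was tested against the rest. Most of the candidates past the adjusted p, named below, reached 10 reads only in the library where they were higher. For them the apparent minimum of the lists favoured an uneven split, and the p values do not allow for it. The known sequences among the 144 needed 10 reads only over both libraries, so the shares are not like for like. The median log2 ratio was 0.02 over the 39 candidates and 0.32 over the 144 sequences. Relative to the sum of listed reads, which lowers each log2 ratio by 0.50, 4 candidates were higher and 9 lower by the exact test, and 5 higher and 13 lower by fold. By fold, 6 were higher and 10 lower with the factors of the study, 6 and 11 with the median of ratios, and 6 and 9 with a pseudocount of 1. Of the 19 candidates past the fold threshold, 9 also passed the exact test, and the intervals of 28 of the 39 included 0. With a minimum of 20 reads over both libraries, 4 were past the fold threshold in each direction. Most fold calls thus lay near the apparent minimum of the lists.

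**Figure D3:**
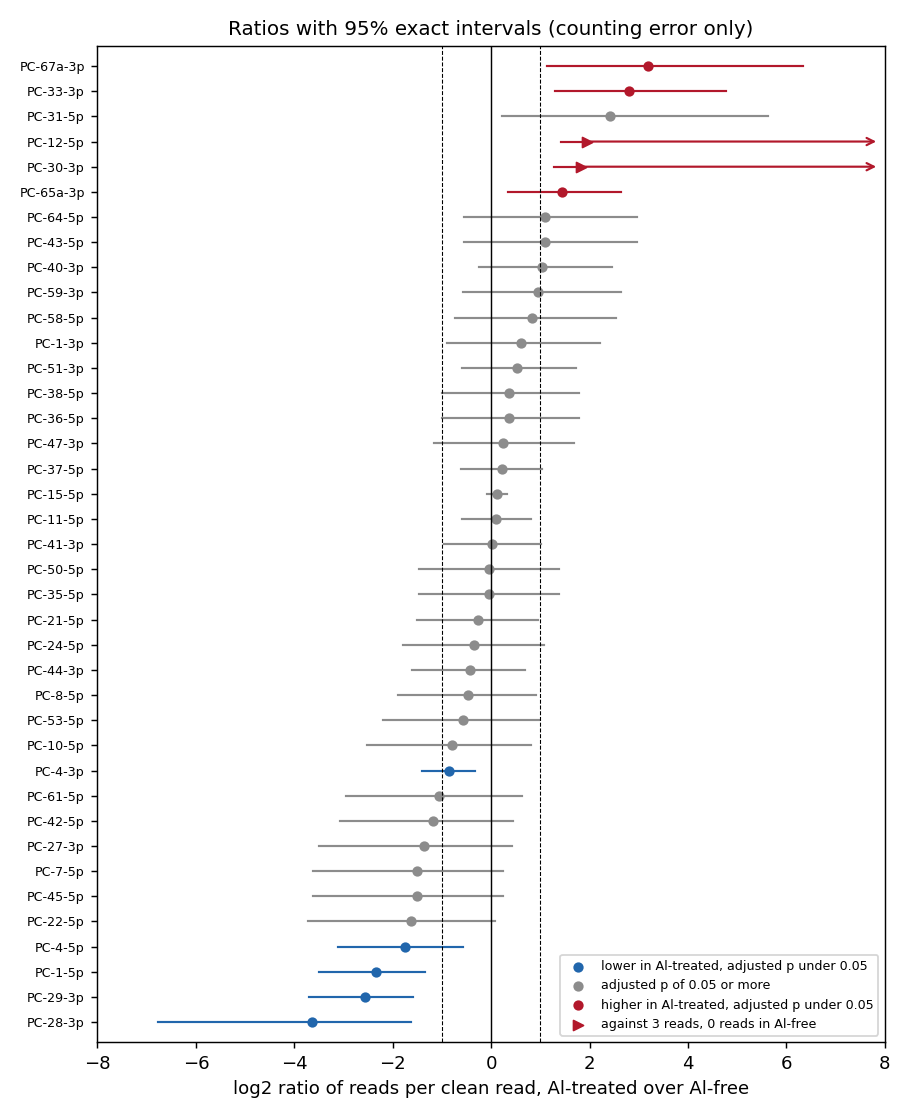
Log2 ratio of reads per clean read, Al-treated over Al-free, of the 39 candidates (points) with 95% exact intervals that cover counting error only (lines), dashed at 1 and -1. Candidates past the adjusted p of 0.05 are coloured, 5 on each side, and arrows mark PC-12-5p and PC-30-3p, which had 0 Al-free reads and are drawn against 3 reads.

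The 5 candidates that were higher in the Al-treated library were of low abundance. PC-33-3p, of 25 nt, had 29 Al-treated and 4 Al-free reads, a log2 ratio of 2.81 (1.30 to 4.78, exact binomial test, adjusted p = 5.56e-05). PC-67a-3p had 19 Al-treated reads and 2 Al-free reads, a log2 ratio of 3.20 (1.15 to 6.34, exact binomial test, adjusted p = 0.000898). PC-65a-3p, with 28 and 10 reads in the same order of libraries, had 1.43 (0.35 to 2.64, exact binomial test, adjusted p = 0.0148). This last call was lost relative to the sum of listed reads (0.94, exact binomial test, adjusted p = 0.177) and with the median of ratios (1.23, adjusted p = 0.0583).

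PC-12-5p and PC-30-3p were read only in the Al-treated library. PC-12-5p had 12 Al-treated reads and 0 Al-free reads, which is 3.86-fold higher when set against the 3 reads that a count of 0 allows in that library. Its log2 ratio had an exact lower limit of 1.42 (exact binomial test, adjusted p = 0.00179). PC-30-3p had 11 Al-treated reads and 0 Al-free reads, 3.54-fold higher against 3 reads, with an exact lower limit of 1.28 for the log2 ratio (exact binomial test, adjusted p = 0.00331). Both sequences met the minimum of 10 reads only through the Al-treated library, so the minimum itself favoured an uneven split, and their p values do not allow for it. The same limit holds for PC-33-3p and PC-67a-3p. It also holds for PC-28-3p and PC-4-5p, described below, which reached 10 reads only in the Al-free library. A count of 0 at this depth does not show that PC-12-5p and PC-30-3p were absent from Al-free roots.

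PC-12-5p, PC-30-3p and PC-67a-3p shared the run CGGATCAA shown above. The run was searched on both strands after the values had been seen, so its reads are a description with no test. It was present in 3 of the 39 candidates (7.69%), in 0 of the 35 shorter ones, in 4 of the 48 known sequences of 23 to 25 nt (8.33%), and in 7 of all 217 (3.23%). All 7 had 24 nt, which is 7 of the 78 listed sequences of that length (8.97%). The 3 candidates had 42 Al-treated and 2 Al-free reads together. Of the known names, PN-miR4343a had 6 Al-treated reads and 1 Al-free read, PN-miR4347 had 6 and 3, and PN-mir4347-p3 and PN-mir4369-p5 each had 3 and 0. All 7 had more reads in the Al-treated library, with sums of 60 Al-treated and 6 Al-free reads. With a count of 0 set against 3 reads, the log2 ratio was above 0 in 5 of the 7. It was -0.05 for PN-mir4347-p3 and PN-mir4369-p5. The median log2 ratio of all 217 listed sequences was 0.27. The 7 sequences are similar beyond the run, with PC-30-3p sharing 16 consecutive bases with PN-miR4347 and PC-67a-3p sharing 14 with PN-miR4343a, so they are not independent examples. PN-mir4343a-p3, which resembled PC-30-3p and PC-67a-3p with up to 2 mismatches over 20 and 19 bases but lacked the run, had 7 Al-treated and 8 Al-free reads. PN-miR4369 also lacked the run and matched PC-67a-3p on the opposite strand over 19 bases with 2 mismatches. It had 23 Al-treated and 3 Al-free reads, so more reads in the Al-treated library were not confined to sequences with the run.

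**Figure D4:**
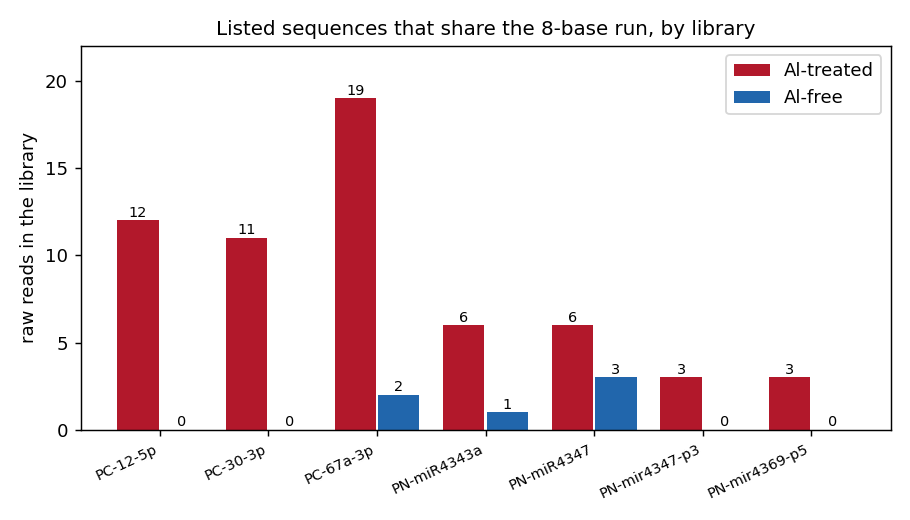
Raw reads in the Al-treated (left bar) and Al-free (right bar) library of the 7 listed sequences that share the 8-base run, which were chosen after their values were seen. The bars are higher in the Al-treated library for all 7, and 4 of them have 0 Al-free reads.

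The 5 candidates that were lower in the Al-treated library included both forms of PC-4. PC-29-3p had 10 Al-treated and 57 Al-free reads, a log2 ratio of -2.56 (-3.70 to -1.58, exact binomial test, adjusted p = 1.27e-08). PC-1-5p, with 10 Al-treated and 49 Al-free reads, had -2.34 (-3.49 to -1.34, exact binomial test, adjusted p = 8.30e-07). PC-28-3p, of 23 nt, had 2 Al-treated and 24 Al-free reads and the lowest ratio of the 39, -3.64 (-6.76 to -1.63, exact binomial test, adjusted p = 2.06e-05). All 3 are sequences with a first T or C, and their ratios kept their call under each alternative.

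PC-4-3p had 48 Al-treated and 84 Al-free reads, a log2 ratio of -0.86 (-1.40 to -0.33, exact binomial test, adjusted p = 0.00313), so it passed the test and not the fold threshold. PC-4-5p had 8 and 26 reads in the same order of libraries, and -1.75 (-3.10 to -0.57, exact binomial test, adjusted p = 0.00513). Since they are the same run of bases, they are 1 observation rather than 2. PC-47-3p had a log2 ratio of 0.24 (-1.17 to 1.69) and PC-15-5p 0.13 (-0.08 to 0.33, exact binomial test, adjusted p = 0.351). Relative to the sum of listed reads, these values were -0.26 and -0.37, that of PC-15-5p with an adjusted p of 0.00134 by the exact binomial test, so the direction of the relatives depended on the scaling. Of the 10 candidates past the adjusted p, A was the first base of 3 of the 5 that were higher and of 0 of the 5 that were lower. Those 3 are the related sequences with the run CGGATCAA, and 2 of the 5 lower ones are the forms of PC-4. The counts are thus not of independent sequences, and a link of first base with direction was not tested.

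A group of 10 candidates was past the fold threshold without passing the test, with exact binomial adjusted p values of 0.0574 to 0.351. PC-7-5p, PC-22-5p, PC-27-3p, PC-42-5p, PC-45-5p and PC-61-5p had 4 or 5 Al-treated reads and 10 to 12 Al-free reads. PC-31-5p, PC-40-3p, PC-43-5p and PC-64-5p had 11 to 17 Al-treated reads and 2 to 8 Al-free reads. In 9 of these 10, and in all 6 of the lower ones, the larger count was 10 to 12, next to the apparent minimum of the lists. The smaller count therefore set the ratio. PC-40-3p, with 17 Al-treated and 8 Al-free reads, was the exception. At this depth a 2-fold difference was not detectable for such sequences.

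The more abundant candidates outside these groups were level. PC-11-5p had 39 Al-treated and 35 Al-free reads, a log2 ratio of 0.11 (-0.59 to 0.81). PC-37-5p had 30 and 25 reads in the same order, and PC-41-3p had 20 and 19, with a log2 ratio of 0.02 (-0.96 to 1.01). These intervals reach close to 2-fold in 1 or both directions, so they do not show equal levels, and the sign of each of these small ratios turned under another scaling. The 13 candidates not named by abundance, fold, arm or overlap had 6 to 18 Al-treated and 6 to 17 Al-free reads, with log2 ratios between -0.79 and 0.95.

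No candidate of 23 to 25 nt had a listed target. The degradome lists, which pair miRNAs with transcripts cut at the predicted site, held 78 distinct pairs in the Al-treated library and 46 in the Al-free library. Predicted candidates had 9 of these pairs in the Al-treated library and 7 in the Al-free library, all from PC-13-3p, PC-2-5p and PC-68a-5p, of 21 nt, and PC-46-5p, of 16 nt. Candidates of 23 to 25 nt had 0 in both. The lists hold called pairs and not all cut sites.

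The lists hold few features that could tell siRNAs from miRNAs. The range of 23 to 25 nt was how the candidates were chosen and says nothing here. Within that range 33 of the 39 had 24 nt, but length alone does not separate the classes. A was the leading first base (16 of 39, beside 2 of 35 for the shorter candidates and 26 of 48 for the known sequences of 23 to 25 nt). In the candidates of 24 nt, some inner positions held A as often or more often. A missing arm or target, which the lists cannot show to be absent, was also the rule among the shorter candidates, of which 8 of 35 had both arms listed and 4 had a listed target. PC-29-3p had a known name and a complementary listed partner, and PC-1 was listed with both arms, although these paired at only 10 bases. Which of the 39 sequences are siRNAs was not tested, because hairpins, loci and phasing were not analysed here.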

How the data were processed

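Small RNAs and cleaved transcripts were sequenced from 4 libraries, 1 of each kind per condition. Per the labels, the authors used ACGT101-miR 4.2 for small RNAs and CleaveLand 3.0 with ACGT301-DGE 1.0 for targets. The deposited small RNA values are raw counts of reads per name and sequence, not normalized, and the deposited target lists hold names and no value. Reads were scaled by the clean reads that the study gives for each library.

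Exact binomial tests, Clopper-Pearson 95% intervals, Benjamini-Hochberg adjustment and Fisher's exact tests were run in Python 3.11.15 (NumPy 2.4.6, SciPy 1.17.1), and duplexes with RNAduplex 2.7.2. Sequences with at least 10 reads over both libraries were tested. The test was checked on simulated Poisson counts. These had no variation between libraries and no minimum on the larger count, so the check covers counting error only. A count of 0 was set against 3 reads. Candidates were named that had at least 20 reads in a library, passed the fold threshold or the adjusted p, were listed with the other arm, shared at least 16 bases with a listed sequence, or had 0 reads in a library, which gave 26. Those named beyond this rule were chosen after their values were seen. The members and lists were chosen with earlier results of these data known. Alternatives were other scalings, minimums, overlaps, a pseudocount of 1, Fisher's exact test and counting by name. No genome was used here.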

Additional observations from a re-analysis of the deposited data

How the results depend on the processing

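Relative to clean reads, the factors of the study lowered every log2 ratio by 0.11, the median of ratios by 0.20 and the sum of listed reads by 0.50. The log2 ratio of the summed candidates, -0.08, became -0.19, -0.28 and -0.58 in that order, and -0.23 without PC-15-5p. Relative to clean reads it was -0.10 without PC-15-5p, PC-4-3p, PC-4-5p and PC-47-3p. The sign turned for PC-11-5p (-0.0030 with the factors, -0.10 with the median of ratios, -0.39 with listed reads), PC-41-3p (-0.085, -0.18 and -0.47), PC-15-5p (-0.077 with the median of ratios and -0.37 with listed reads, exact binomial adjusted p = 0.00134), PC-37-5p (-0.29) and PC-47-3p (-0.26, both with listed reads). With the minimum of the study, 20 reads in a library, 6 candidates were past the fold threshold, 2 higher and 4 lower, and with 20 reads over both libraries 8 were. The number that passed the exact test was between 7 and 13 over the alternatives, and 10 as reported. With a limit of 20 shared bases, 3 candidates overlapped a listed sequence. Of 207 values of single candidates under the alternatives, 192 kept direction and their call by the exact test. Of the others, 10 changed sign, 2 lost the call and 3 gained it with the same sign. PC-15-5p relative to listed reads, counted among the 10, also gained the call. No paired analysis was possible because each condition had 1 library, and no replicate could be left out. Depth limits most candidates: an interval around 10 reads in each library reached -1.47 to 1.37 (PC-35-5p).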
